A study of Mus musculus with 6 samples.

Results

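The 33 genes described here are the Hox genes that could be read singly on the array. Hox genes encode homeodomain transcription factors and lie in 4 chromosomal clusters, a to d, each gene carrying a paralogue number between 1 and 13 that marks its place in the cluster. Members were all genes whose platform symbol was Hoxa, Hoxb, Hoxc or Hoxd followed only by a number, and where several probe sets named a gene, the brightest on average stood for it. They form part of 18194 genes measured. The mouse RefSeq list holds 39 such genes, 11 in cluster a, 10 in b, 9 in c and 9 in d, and 9, 9, 7 and 8 of these had a probe set naming them alone. The other 6 are not analysed here.

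The arrays held RNA of lineage-negative, cKit-positive, Sca1-positive (LSK) marrow cells, the fraction that contains blood stem cells and early multipotent progenitors. All donors were 6-week-old mice with 1 GFP reporter allele and 1 wild-type allele of Hes1, a repressor gene in the Notch pathway, so GFP-negative cells carried the reporter allele too. The 3 GFP-positive arrays comprised 1 female (replicate 1) and 2 males (replicates 2 and 3), and the 3 GFP-negative arrays had the same make-up. Whether each array stands for its own animal or for a pool is not given in the labels. Replicates 2 and 3 of a group, both male, may be technical replicates, so the p-values may cover technical spread in part.

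In blood formation, genes of clusters a and b are the ones best known to act in stem cells and early progenitors, where they support self-renewal and are shut off as cells mature, while genes of cluster d are known mainly from limb, trunk and genital development. Hox proteins bind DNA together with TALE homeodomain cofactors of the Meis and Pbx families. Trithorax-group complexes around the methyltransferase Kmt2a (MLL) keep Hox genes active, polycomb complexes keep them silent, and retinoic acid and Cdx factors set their expression in the embryo.

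Levels are given as log2 intensity. A log2 fold change is the GFP-positive mean less the GFP-negative mean, with the SE of a limma fit across all genes (n = 3 per group). As guides to background serve the highest signal of 3 Y-linked genes in female arrays, 4.69, and the highest Xist signal in male arrays, 5.59. Probe sets differ in affinity, so these guides are rough. Of 8 genes listed for LSK cells, the 7 measured all lay above the higher guide in every array. Only Kit among these 7 is named in the sort. It lay between 9.69 and 10.51 in GFP-positive arrays and between 10.47 and 10.72 in GFP-negative ones. Ly6a had no probe set of its own. Of the 7 genes 5 had a negative fold change. In 3 every GFP-positive array lay below every GFP-negative one, where all genes gave 5.51%. These were Cd34 (-0.63 ± 0.17), Flt3 (-0.89 ± 0.38) and Ptprc (-0.28 ± 0.16). In 1, Ly6e (0.09 ± 0.13), every GFP-positive array lay above, where all genes gave 5.89%. The part of these genes in the Hox results was not tested. Among 6 measured lineage markers the B cell gene Ms4a1 stayed between 3.33 and 3.57, but Cd79a lay at 7.99, 7.67 and 9.98 in GFP-positive arrays, against 5.79 to 5.87 in GFP-negative arrays. Of the 6 markers 2 had a positive and 4 a negative fold change, the negative ones including Cd4 (-0.65 ± 0.38) and Itgam (-0.73 ± 0.56). Cd4 lay above the higher guide in every array. The summed intensity of the 6 was 741.74 to 1690.8 in GFP-positive arrays and 767.85 to 1256.3 in GFP-negative ones. GFP-positive replicate 1 stood apart in its summed endothelial and stromal signal. Summed over 10 endothelial genes, intensity came to 12094 in that array and to 2977.8 and 1615.5 in GFP-positive replicates 2 and 3, against 1930.8 to 2978.4 in GFP-negative arrays. Over the 10 measured of 12 stromal genes it came to 10862 in that array and to 2252.5 and 1427.8 in replicates 2 and 3, against 1117.1 to 1888.5 in GFP-negative arrays. In each of the 2 lists 9 of 10 genes were highest in that array, whereas it was the highest of the 6 in 27.1% of all genes. Some of these genes were also higher in the other GFP-positive arrays. Stromal Cxcl12 was at 12.52, 9.27 and 8.34 in GFP-positive arrays, against 5.34 to 5.52 in GFP-negative ones, and the groups did not overlap for stromal Vcam1 (2.06 ± 0.57) and endothelial Tie1 (0.80 ± 0.21) either. Results that lean on replicate 1 are given with and without it, which does not leave out these genes' signal in replicates 2 and 3.

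As a family the Hox genes differed little between GFP-positive and GFP-negative cells, and Hoxb5 had the largest fold change of the 33, at 2.70 on the log2 scale. Its GFP-negative level lay under the higher guide to background, so the size of that difference is uncertain. The median log2 fold change of the 33 genes was -0.006, against 0.008 over all genes tested, with 16 positive and 17 negative values. In 29 of them the fold change was smaller than 0.5 in either direction, as it was in 79.6% of all genes. Only 11 of the 33 lay above the higher guide in all 6 arrays. Of these 11, 3 had a positive and 8 a negative fold change, with a median of -0.071. Over all 11343 genes above that guide, 5496 were positive and 5847 negative, with a median of -0.011. Signals near background limit what can be said of the other 22 Hox genes. No Hox gene passed limma with Benjamini-Hochberg adjustment over the 18194 genes, where 0% of all genes passed at an adjusted p under 0.05. At an unadjusted p under 0.05, 2 Hox genes were higher, Hoxb5 and Hoxb3, and 0 lower, against 3.33% of all genes higher and 3.38% lower. In 3 Hox genes, Hoxb3, Hoxb5 and Hoxd3, every GFP-positive array lay above every GFP-negative one, and in 1, Hoxa9, every one lay below, where all genes gave 5.89% and 5.51%. Beyond Hoxb5 and Hoxb3 the remaining 31 fold changes lay between -0.67 and 0.29.

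**Figure D1:**
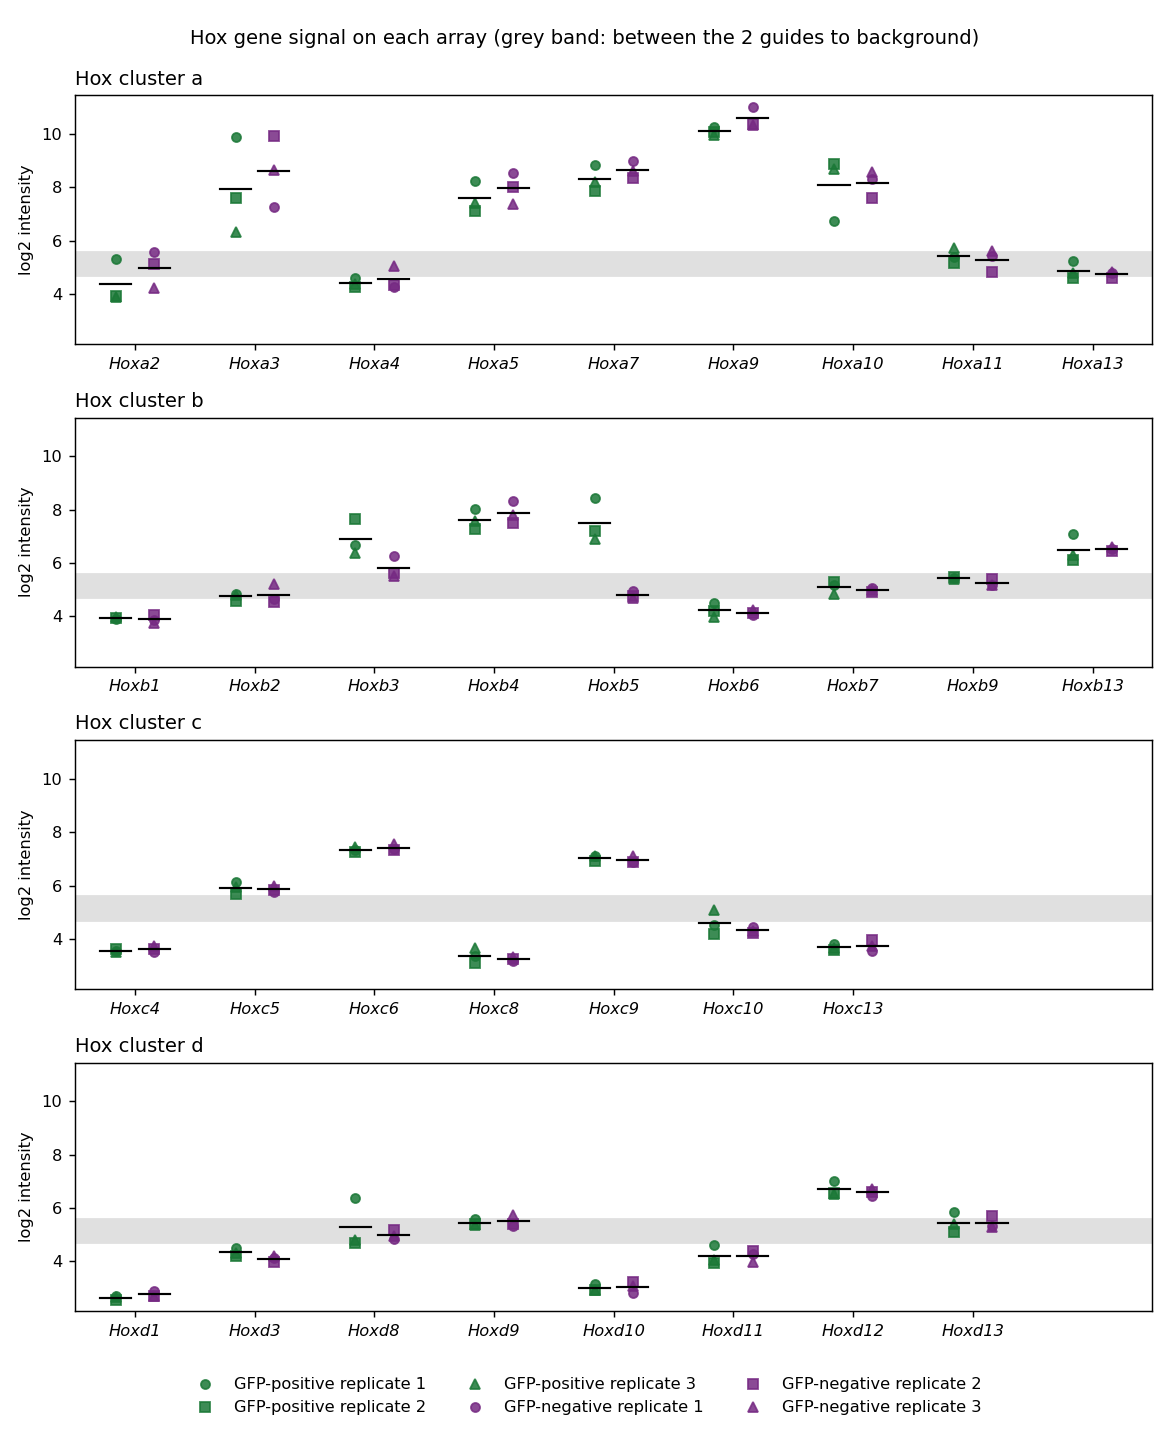
Log2 intensity (y axis) of the 33 Hox genes on each array, by cluster, with GFP-positive arrays in green to the left of GFP-negative arrays in purple, symbols for replicates and bars for group means. Hoxb5 shows 3 GFP-positive arrays between 6.92 and 8.42 above 3 GFP-negative arrays between 4.71 and 4.97, while most other genes overlap, and the grey band spans the guides of 4.69 and 5.59.

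Set against the guides, the members fell into 3 sets. Above the higher guide of 5.59 in all 6 arrays lay 11 of the 33 genes: Hoxa3, Hoxa5, Hoxa7, Hoxa9 and Hoxa10 in cluster a, Hoxb4 and Hoxb13 in b, Hoxc5, Hoxc6 and Hoxc9 in c, and Hoxd12 in d. Below the lower guide in all 6 arrays lay 9 genes: Hoxb1, Hoxb6, Hoxc4, Hoxc8, Hoxc13, Hoxd1, Hoxd3, Hoxd10 and Hoxd11. The other 13 lay between or crossed a guide. Among those above the higher guide, Hoxb13 ranged from 6.13 to 7.10 over the 6 arrays and Hoxd12 from 6.45 to 7.01. Hoxc6 and Hoxc9 were above the guide but nearly level over the arrays. Hoxc6 was at 7.34, 7.25 and 7.45 in GFP-positive arrays, against 7.37, 7.32 and 7.56 in GFP-negative ones. Whether such a steady signal comes from the named transcript was not tested.

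Hoxb5, a central member of cluster b known as a marker of long-term blood stem cells, was at 8.42, 7.20 and 6.92 in the GFP-positive arrays (replicates 1 to 3), against 4.97, 4.77 and 4.71 in GFP-negative ones. The gap between the groups was wider than the spread within either, and the GFP-negative arrays all lay under the higher guide to background. Its log2 fold change was 2.70 ± 0.40 (unadjusted p = 0.000545, limma adjusted p = 0.254). The highest value came from GFP-positive replicate 1, the array with high endothelial and stromal signal, and without it the log2 fold change was 2.25 (limma adjusted p = 0.138). Within the male arrays it was 2.32. In a sorted bulk population, more cells that express a gene and more RNA per expressing cell cannot be told apart. Of 9 markers of long-term stem cells, Hoxb5 included, 8 had a positive fold change, and in 5, again with Hoxb5, every GFP-positive array lay above every GFP-negative one, as in 5.89% of all genes. Among them Tek, the angiopoietin receptor, was at 2.82 ± 0.45 and Procr, a stem cell surface receptor, at 0.77 ± 0.26, while Hlf was at -0.05 ± 0.23. Of the 9 markers on this list 3, Hoxb5, Tek and Ctnnal1, were highest in GFP-positive replicate 1, as were 27.1% of all genes. Tek was at 8.708 in that array, with 7.666 and 7.035 in replicates 2 and 3. The part of endothelial or stromal cells in these values was not tested. This list was chosen with earlier results of these data known, and none of its members passed limma over all genes (lowest adjusted p 0.254). Markers of other blood cells were higher too. The summed intensity of 4 megakaryocyte genes was 6018.8 to 7054.9 in GFP-positive arrays, against 1279.4 to 2680.5 in GFP-negative ones. For 4 erythroid genes it was 2054.6 to 2816.1 against 300.15 to 428.08, and for 5 proliferation genes 8890.7 to 11626 against 2174.4 to 6665.5. Their part in the Hoxb5 result was not tested.

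Hoxb3, which lies beside Hoxb5 and whose annotated span encloses Hoxb4 (RefSeq, GRCm38.p6), was at 6.68, 7.64 and 6.39 in GFP-positive arrays, against 6.26, 5.63 and 5.52 in GFP-negative ones. The lowest GFP-positive and the highest GFP-negative array differed by little, so the separation is narrow. In blood cells Hoxb3 is known to promote proliferation of progenitors. Its log2 fold change was 1.10 ± 0.38 (unadjusted p = 0.0283, limma adjusted p = 0.667), and it ranged from 0.73 without GFP-positive replicate 2 to 1.36 without GFP-positive replicate 3. The unadjusted p was no longer under 0.05 without GFP-positive replicate 2, GFP-negative replicate 2 or GFP-negative replicate 3, nor with the mean of its probe sets. Without GFP-positive replicate 1 the log2 fold change was 1.21. A second probe set named Hoxb3 did not show this: it lay at 5.86, 4.72 and 4.66 in GFP-positive arrays, against 5.02, 4.92 and 6.29 in GFP-negative ones, a log2 fold change of -0.33 ± 0.51. The positive value for Hoxb3 therefore rests on 1 of its 2 probe sets.

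Hoxb5os, a long noncoding transcript whose span overlaps Hoxb5 and Hoxb6, was at 6.23, 7.56 and 5.83 in GFP-positive arrays, against 6.11, 5.67 and 4.99 in GFP-negative ones. Its groups overlapped, and its log2 fold change was 0.95 ± 0.52 (limma adjusted p = 0.867). Like Hoxb3 it was highest in GFP-positive replicate 2 and lowest in GFP-negative replicate 3, whereas Hoxb5 was highest in GFP-positive replicate 1. Hoxb4, which drives stem cell expansion when overexpressed, sits between the Hoxb5 and Hoxb2 genes but had a negative fold change. It was at 8.03, 7.28 and 7.57 in GFP-positive arrays, against 8.34, 7.51 and 7.80 in GFP-negative ones, with overlapping groups and a log2 fold change of -0.26 ± 0.30. It was -0.03 without GFP-negative replicate 1 and -0.08 without GFP-positive replicate 2. Its second probe set was at -0.52 ± 0.45.

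The remaining genes of cluster b were flat. Hoxb1, Hoxb2, Hoxb6, Hoxb7, Hoxb9 and Hoxb13 had log2 fold changes between -0.05 and 0.19. Hoxb6, the other neighbour of Hoxb5, lay at 4.51, 4.19 and 3.98 in GFP-positive arrays, against 4.07, 4.12 and 4.23 in GFP-negative ones, all under the lower guide to background. The median of the cluster was 0.09, and 0.05 over the 7 genes other than Hoxb3 and Hoxb5, which lay between -0.26 and 0.19. Outside the cluster, the 5 measured of 6 neighbours had a median of 0.09, from Snx11, a sorting nexin, at -0.37 ± 0.38 to Skap1, a T cell adaptor, at 0.32 ± 0.19.

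**Figure D2:**
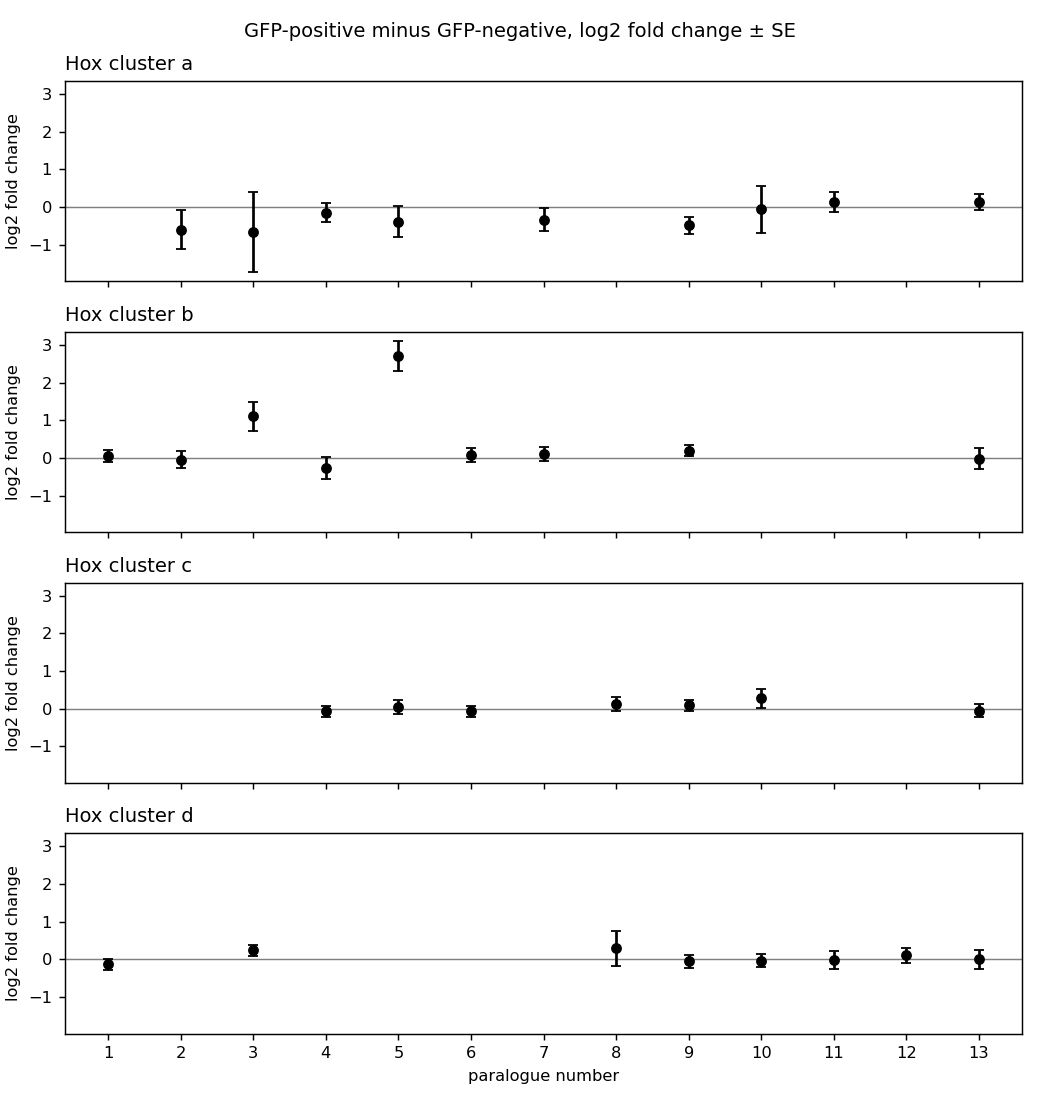
Log2 fold change, GFP-positive minus GFP-negative (y axis, bars give the SE), against paralogue number (x axis) in each of the 4 clusters. Hoxb5 at 2.70 and Hoxb3 at 1.10 stand above the rest, and 7 of the 9 genes of cluster a lie below 0.

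In cluster a, whose genes are the main Hox genes of early blood cells and of leukaemias driven by MLL fusions, 7 of 9 genes had a negative fold change and the median was -0.33. Hoxa5 counts among the 7 by its chosen probe set, and its other probe set was at 1.61 ± 0.44. With the chosen probe sets the unadjusted p was under 0.05 in 0 of the 9. Among the alternative fits it was for Hoxa9 with sex as a covariate and for Hoxa3 in the male arrays alone, both lower. Of all 18194 genes, 1363 and 1391 had an unadjusted p under 0.05 in those limma fits, in either direction. Between the female arrays the difference for Hoxa3 was positive, at 2.62. GFP-positive replicate 1 went the other way from the rest of its group: the median deviation of the cluster from the GFP-negative mean was 0.20 in that array, against -0.51 and -0.44 in GFP-positive replicates 2 and 3. GFP-negative arrays themselves ranged from -0.19 to 0.14. The median of the cluster depended on single arrays: it was -0.57 without GFP-positive replicate 1, -0.16 without GFP-positive replicate 2 and -0.17 without GFP-negative replicate 1. With the mean of each gene's probe sets it was -0.19.

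Hoxa9, which sustains stem and progenitor cell growth and is a main target of MLL fusion proteins, was at 10.26, 10.07 and 9.95 in GFP-positive arrays, against 11.02, 10.39 and 10.33 in GFP-negative ones. All GFP-positive values were lower, by a margin smaller than the spread of either group. The log2 fold change was -0.48 ± 0.24 (unadjusted p = 0.085, limma adjusted p = 0.82), and -0.26 without GFP-negative replicate 1. Its second probe set had the same sign at -0.95 ± 0.47, with GFP-positive arrays at 10.50, 9.11 and 8.91 and GFP-negative arrays at 10.80, 10.57 and 10.01, and there the groups overlapped.

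Hoxa10, a neighbour of Hoxa9 that also drives progenitor expansion, was at 6.73, 8.87 and 8.69 in GFP-positive arrays, against 8.30, 7.61 and 8.56 in GFP-negative ones. GFP-positive replicate 1 was the lowest of the 6 and replicate 2 the highest, so the log2 fold change of -0.06 ± 0.62 averages over arrays that disagree. Without GFP-positive replicate 1 it was 0.62. A dim second probe set, at -1.59 ± 0.99, lay between 3.33 and 4.07 in 5 arrays and at 7.41 in GFP-negative replicate 2. Hoxa7 was at 8.84, 7.87 and 8.19 in GFP-positive arrays, against 8.97, 8.33 and 8.61 in GFP-negative ones, a log2 fold change of -0.33 ± 0.31.

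Hoxa5, the cluster a paralogue of Hoxb5 and known in human progenitors to favour myeloid over erythroid fates, gave opposite answers from its 2 probe sets. The chosen one, by a mean of 7.78 against 7.49, was at 8.22, 7.13 and 7.40 in GFP-positive arrays, against 8.53, 8.01 and 7.36 in GFP-negative ones, a log2 fold change of -0.38 ± 0.41. The other was at 8.03, 8.78 and 8.09 in GFP-positive arrays, against 6.97, 7.29 and 5.81 in GFP-negative ones. In this second probe set all 3 GFP-positive arrays lay above all GFP-negative ones, with a log2 fold change of 1.61 ± 0.44 (unadjusted p = 0.0109, limma adjusted p = 0.576 in a fit over 34958 probe sets). The chosen probe set is of the platform's class (suffix x) whose probes can bind other transcripts, and which of the 2 follows the Hoxa5 transcript was not tested. The mean of both gave 0.62.

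Hoxa3 had the largest SE of the 33 members, at 9.87, 7.62 and 6.32 in GFP-positive arrays, against 7.26, 9.92 and 8.63 in GFP-negative ones. The GFP-negative values lay within the range of the GFP-positive ones but for the highest, and the log2 fold change was -0.67 ± 1.06. Hoxa2, Hoxa4, Hoxa11 and Hoxa13 lay under or around the guides to background, with log2 fold changes between -0.60 and 0.14. Next to the cluster, Evx1, a homeobox gene beyond Hoxa13, was at 0.66 ± 0.25 (limma adjusted p = 0.698), and Skap2, an adaptor protein gene, at -0.26 ± 0.15. Groups did not overlap for either gene, with Evx1 higher and Skap2 lower, where all genes gave 5.89% and 5.51%. Evx1 lay between 5.03 and 5.31 in GFP-negative arrays, under the higher guide to background, so the size of its difference is uncertain.

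**Figure D3:**
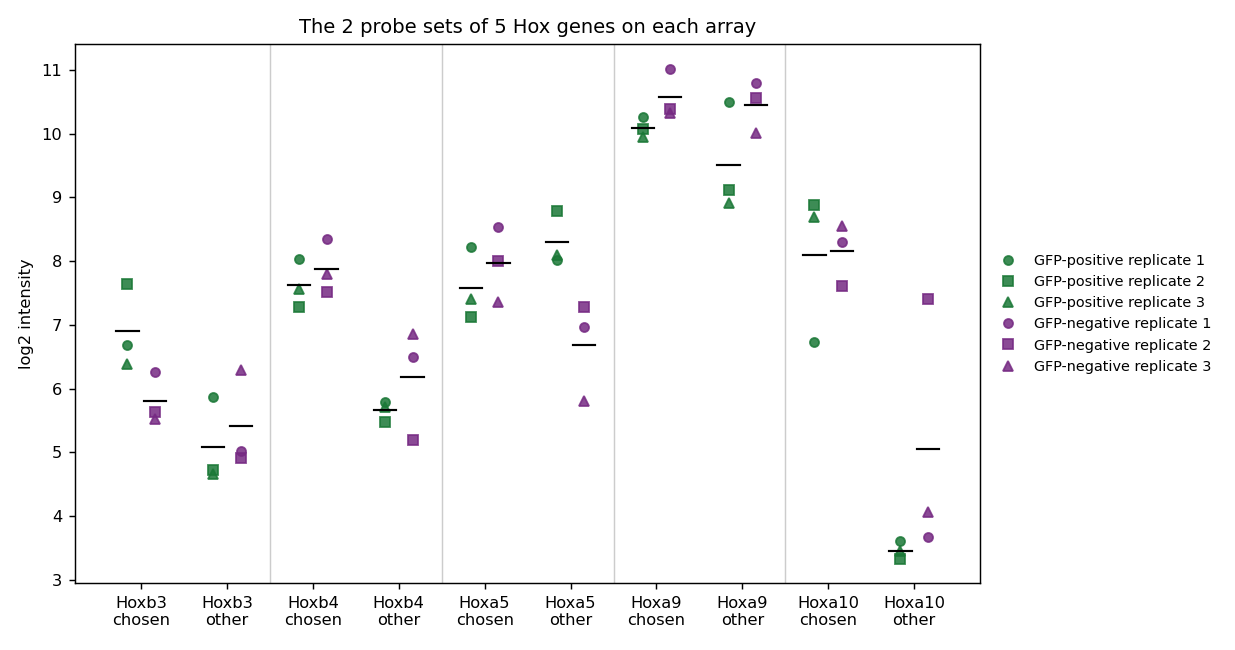
Log2 intensity (y axis) of both probe sets of Hoxb3, Hoxb4, Hoxa5, Hoxa9 and Hoxa10 on each array, the chosen one first, GFP-positive arrays left of GFP-negative ones, with bars for group means. The probe sets of Hoxa5 and Hoxb3 point in opposite directions (log2 fold changes of -0.38 and 1.61, and of 1.10 and -0.33), while those of Hoxb4, Hoxa9 and Hoxa10 share their sign.

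Probe sets of the same Hox gene did not always agree. The annotation gave 48 probe sets to the 33 genes, and 11 genes had several. In 5 of these the signs of the fold changes were mixed: Hoxa3, Hoxa5, Hoxb3, Hoxc5 and Hoxc6. The share of mixed signs over all genes with several probe sets was not computed. For Hoxc5 and Hoxc6 all fold changes lay between -0.07 and 0.06, so only Hoxa3, Hoxa5 and Hoxb3 disagreed by more than that. For Hoxa3 the only positive probe set was at 0.06 ± 0.29, close to 0. Hoxb5 had 1 probe set, so its value has no second reading.

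Cluster c, used in skin, hair and posterior trunk, and cluster d, used in limbs and trunk, showed no gene with an unadjusted p under 0.05. The 7 genes of cluster c had log2 fold changes between -0.07 and 0.27 and a median of 0.05, and the 8 of cluster d lay between -0.13 and 0.29 with a median of -0.002. Hoxd3, in which the groups did not overlap, was at 4.49, 4.20 and 4.33 in GFP-positive arrays, against 4.13, 3.98 and 4.19 in GFP-negative ones. All 6 values were below the lower guide to background, and the log2 fold change was 0.24 ± 0.15 (limma adjusted p = 0.92). Hoxd8 lay apart in GFP-positive replicate 1, at 6.39, with 4.69 and 4.79 in replicates 2 and 3, against 4.83, 5.19 and 4.97 in GFP-negative ones. GFP-positive replicate 1 was the highest of the 6 arrays in 5 of the 8 genes of cluster d, against 27.1% of all genes and 10 of the 33 Hox genes. In cluster a this held for 1 of 9 genes, in b for 3 of 9 and in c for 1 of 7. Among the 5 of cluster d, Hoxd3 and Hoxd11 lay below the lower guide to background in all 6 arrays. The second Hoxd8 probe set was also highest in GFP-positive replicate 1, at 4.89. The log2 fold change of Hoxd8 was 0.29 ± 0.47 with that array and -0.26 without it, and the part of endothelial or stromal cells in it was not tested.

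Grouped by paralogue number, medians stayed near 0. The anterior genes, numbers 1 to 3, had a median of -0.05 over 7 genes, the central ones, 4 to 8, -0.01 over 12, and the posterior ones, 9 to 13, -0.002 over 14. In paralogue group 5 the values were 2.70 for Hoxb5, 0.05 for Hoxc5 and -0.38 for Hoxa5. Paralogue group 3 held 1.10 for Hoxb3, 0.24 for Hoxd3 and -0.67 for Hoxa3. These contrasts depend on the probe set chosen: the second probe set of Hoxa5 was at 1.61 and that of Hoxb3 at -0.33. In group 4 all 3 genes were slightly negative, between -0.26 and -0.07. The 14 posterior genes had fold changes between -0.48 and 0.27, the lowest being Hoxa9.

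Sex was the other factor the labels gave. For several Hox genes the female arrays and the male arrays gave differences of opposite sign. For Hoxa3 the GFP-positive minus GFP-negative difference was 2.62 (log2) between the female arrays and -2.31 between the means of the male arrays. For Hoxd8 these differences were 1.55 and -0.34, and for Hoxa10 -1.57 and 0.70. For Hoxb5 both were positive, 3.46 and 2.32. In a limma fit with an interaction of sex and GFP, 4 of the 33 Hox genes had an unadjusted p under 0.05, against 7.24% of all genes, and 0 passed adjustment over all genes (smallest adjusted p among Hox genes 0.444, for Hoxd8). Each group held 1 female array, so sex, the replicate number and the high endothelial and stromal signal of GFP-positive replicate 1 cannot be told apart here.

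Promoter sequence is shown for 3 members that the values above turn on, Hoxa9, Hoxb4 and Hoxa5 (RefSeq, GRCm38.p6, 250 bases before to 50 bases after the start, 5′ to 3′ on the gene's strand). Of the 33 genes 19 had such a window, and Hoxb3 and Hoxb5 were not among them. Capitals mark matches to 5 motifs searched on both strands: the N box bound by Hes repressors (CACNAG), the Hes class C site (CACGCG), the Hox-Pbx site (TGATNNAT), the Meis site (TGACAG) and the CCAAT box (CCAAT).
Hoxa9, chr6:52227321-52227620, minus strand: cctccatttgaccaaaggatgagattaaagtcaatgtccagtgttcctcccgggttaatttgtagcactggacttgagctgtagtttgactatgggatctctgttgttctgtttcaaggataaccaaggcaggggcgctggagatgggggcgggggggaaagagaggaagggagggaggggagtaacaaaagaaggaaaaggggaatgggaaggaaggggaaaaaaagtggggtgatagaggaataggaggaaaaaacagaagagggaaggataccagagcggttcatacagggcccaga
Hoxb4, chr11:96318017-96318316, plus strand: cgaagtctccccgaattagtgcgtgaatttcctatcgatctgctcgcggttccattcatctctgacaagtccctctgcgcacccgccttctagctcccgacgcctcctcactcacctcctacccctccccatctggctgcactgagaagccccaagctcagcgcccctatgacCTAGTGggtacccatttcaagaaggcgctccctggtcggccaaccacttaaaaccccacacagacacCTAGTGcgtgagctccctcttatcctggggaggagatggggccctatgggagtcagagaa
Hoxa5, chr6:52204538-52204837, minus strand: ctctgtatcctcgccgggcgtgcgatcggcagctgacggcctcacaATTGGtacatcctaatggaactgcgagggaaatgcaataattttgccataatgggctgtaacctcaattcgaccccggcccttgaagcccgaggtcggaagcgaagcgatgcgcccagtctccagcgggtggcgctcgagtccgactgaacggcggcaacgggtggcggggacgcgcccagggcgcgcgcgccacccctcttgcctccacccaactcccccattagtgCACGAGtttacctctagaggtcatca
The Hoxa9 window held no match, and no matches overlapped in the others. In the Hoxb4 window the N box occurred at 2 places, both on the minus strand, so that the printed strand reads CTAGTG. In that of Hoxa5 it occurred once, as CACGAG 24 bases past the start, and a CCAAT box lay on the other strand at position -204 from the start. Over the 24 windows of 22 Hox genes the N box was in 33.3%, against 42.5% of all 32851 windows, and the class C site in 12.5% against 9.27%. The Hox-Pbx site was in 16.7% against 8.85%, the Meis site in 8.33% against 19.2%, and the CCAAT box in 62.5% against 37.4%. These matches describe the letters only.

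The genes of proteins that work with or on Hox genes had list medians between -0.18 and 0.17, and none of them passed limma over all genes (lowest adjusted p 0.129, for Aldh1a1). The 10 measured of 11 TALE cofactors had a median of 0.01, with Meis3 at 0.49 ± 0.23, Tgif1 at -0.56 ± 0.42, Tgif2 at -0.29 ± 0.28 and Pbx3 at 0.26 ± 0.41, all with overlapping groups. Meis1, the main Hox cofactor of blood stem cells, was at 9.40, 10.04 and 9.88 in GFP-positive arrays, against 10.05, 9.93 and 9.33 in GFP-negative ones, chosen for its role after its values were seen. Its fold change of 0.002 ± 0.27 was close to 0.

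Of 14 measured trithorax and MLL complex genes 7 had a positive fold change, with an unadjusted p under 0.05 for 1 higher and 2 lower genes (3.33% and 3.38% of all genes). Mllt3, a chromatin reader and MLL fusion partner that maintains human blood stem cells, was at 10.004, 11.35 and 11.26 in GFP-positive arrays, against 9.09, 9.95 and 9.67 in GFP-negative ones, a log2 fold change of 1.30 ± 0.43 (limma adjusted p = 0.64). Its groups did not overlap, though narrowly. Its relative Mllt1 was at -0.63 ± 0.25, Mllt10 at -0.58 ± 0.26 and the H3K27 demethylase gene Kdm6b at -1.21 ± 0.47. Kmt2a itself, chosen for its role after its values were seen, was at -0.43 ± 0.45.

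Of 26 polycomb genes 10 had a positive and 16 a negative fold change, with a median of -0.18. The unadjusted p was under 0.05 for 1 higher and 2 lower genes, against 3.33% and 3.38% of all genes. Phc1, a subunit of the canonical polycomb repressive complex 1, was at 9.96, 10.22 and 9.86 in GFP-positive arrays, against 9.39, 8.65 and 8.84 in GFP-negative ones. That is a log2 fold change of 1.05 ± 0.24 (limma adjusted p = 0.456), with groups that did not overlap. Pcgf1, of a variant form of the same complex, was at 5.70, 6.55 and 7.19 in GFP-positive arrays, against 8.84, 8.05 and 7.39 in GFP-negative ones, at -1.61 ± 0.51. Asxl1, a partner of the deubiquitinase Bap1, was at -0.56 ± 0.20 and Cbx6 at 0.43 ± 0.22.

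The 3 Cdx genes lay between -0.24 and 0.08. Of 13 measured genes of retinoic acid signalling 9 had a positive fold change, with a median of 0.17, with an unadjusted p under 0.05 for 2 higher genes and 0 lower ones, where all genes gave 3.33% and 3.38%. Aldh1a1, which makes retinoic acid, was at 7.24, 7.84 and 7.71 in GFP-positive arrays, against 4.06, 4.32 and 4.89 in GFP-negative ones, which lay under the higher guide to background, so the size of the difference is uncertain. Its log2 fold change was 3.17 ± 0.28, with those of the receptor genes Rarb and Rxrg at 0.48 ± 0.19 and 0.40 ± 0.17, and Cyp26b1, which breaks retinoic acid down, at 0.39 ± 0.21. Rarb lay between 4.16 and 4.62 in GFP-positive arrays, against 3.78 to 4.14 in GFP-negative ones, below the lower guide to background. The other noncoding transcripts of the clusters, Hoxa11os and Hoxd3os1, were below that guide too. Next to clusters c and d, Cbx5, a heterochromatin protein gene, was at 0.30 ± 0.16 and the transcription factor gene Atf2 at -0.38 ± 0.20.

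**Figure D4:**
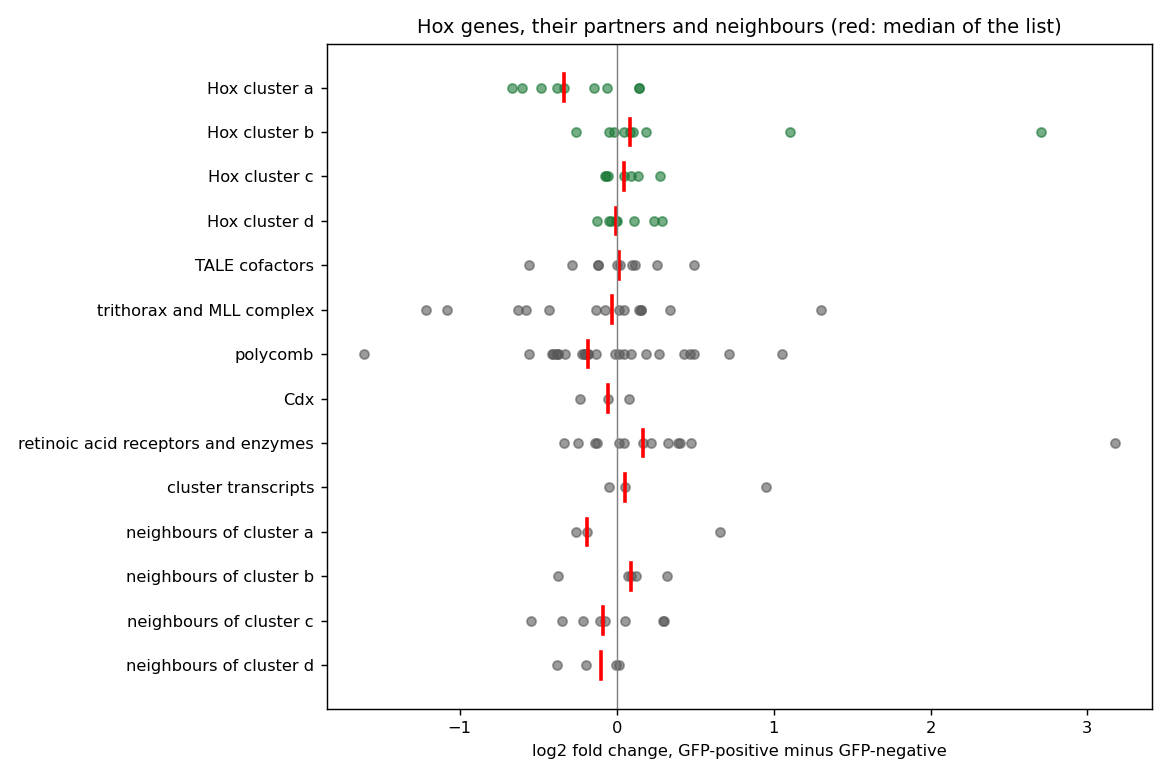
Log2 fold change, GFP-positive minus GFP-negative (x axis), of each Hox gene by cluster (green) and of each measured partner, regulator or neighbour (grey), with a red line at the median of each row. Medians lie between -0.33 for cluster a and 0.17 for the retinoic acid genes, and Hoxb5 at 2.70 and Aldh1a1 at 3.17 lie far to the right of their rows.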

How the data were processed

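Gene expression of LSK cells was measured on 6 Affymetrix arrays, from 5 ng of amplified total RNA each, per the labels' protocols. The authors deposited 1 linear intensity per probe set and array for 45101 probe sets. RMA (background correction, quantile normalisation and summary over probes) is named in the submitters' processing notes, with version and settings not given in the sources used here. It compresses differences near background. Array medians lay between 74 and 78.5. Log2 was taken with no pseudocount. Probe sets were named from the platform annotation: 34958 carried 1 symbol, 932 several and 9211 were not listed. The probe set with the highest mean stood for each of 18194 genes. Groups were compared with limma 3.58.1 in R 4.3.3 (lmFit, eBayes, no covariates), with Benjamini-Hochberg adjustment over all genes and a threshold of 0.05, and the procedure was tested on simulated data. Figures used matplotlib 3.10.9 in Python 3.11.15. The number of arrays limits the precision. Members and lists were chosen with earlier results of these data known. Values on every array are given for Hox genes with an unadjusted p under 0.05 or non-overlapping groups and for Hoxa9, Hoxa10, Hoxb4 and Hoxb5, and up to 4 members of smallest p are named per list. Other genes given in full, Hoxa3, Hoxa5, Hoxa7, Hoxb6, Hoxc6 and Hoxd8 among them, were chosen after their values were seen. RefSeq (GRCm38.p6) served for names, gene order and promoter windows. Alternatives covered probe set averaging, a filter at the 40th percentile, variance priors, renewed normalisation, a pseudocount of 16, the replicate block, sex, males alone and the omission of each array.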

Additional observations from a re-analysis of the deposited data

Results flagged for a closer look

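A signal in data outside the comparison came from a probe set that the annotation gives to Hoxb8 and Hoxb7 together, which was left out because it names 2 genes. It lay at 5.49 in GFP-positive replicate 1, with 3.18 and 3.17 in replicates 2 and 3, against 3.48, 3.15 and 3.03 in GFP-negative ones, so 1 array stood above all others. That array is the one with summed endothelial and stromal intensities of 12094 and 10862. The value of 5.49 is below the higher guide to background, and the probe set of Hoxb7 alone, at 5.19 in that array, did not stand apart there. The part of endothelial or stromal cells in this signal was not tested.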

How the results depend on the processing

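Hox genes past the threshold numbered 0 under all 16 alternatives run, while the count over all genes was 1 with the filter at the 40th percentile and ranged from 0 to 5 when 1 array was left out, with the 5 arising without GFP-positive replicate 3. That filter kept 11 of the 33 Hox genes and removed Hoxb5 and Hoxd3. Hoxb5 stayed positive in all 15 alternatives that kept it, between 2.18 (log2(value + 16)) and 3.00, with limma adjusted p-values from 0.138 to 0.572. Hoxa9 stayed negative in 17 of 17, from -0.95 to -0.26, and Hoxb4 in 17 of 17, from -0.52 to -0.03. Not all of these alternatives were free to change the fold change, so such counts overstate how far it was probed. The variance priors and the filter leave it as it is, as do the replicate block and sex in this balanced design. Averaging leaves it for Hoxb5, which had 1 probe set. Hoxb3 was positive in 16 of 17, with -0.33 from its other probe set and 0.39 as the mean of both. Hoxa5 turned to 0.62 with the mean of its probe sets and 1.61 with the other one. Hoxa10 turned to 0.70 in the male arrays alone and, leaving out 1 array, ranged from -0.45 to 0.62, positive without GFP-positive replicate 1, GFP-negative replicate 1 or GFP-negative replicate 3. The cause of these turns was not tested. In the male arrays alone the median of cluster c was -0.088 and that of d -0.19. Leaving out 1 array the cluster medians ranged from -0.57 to -0.16 for a, 0.052 to 0.21 for b, -0.054 to 0.154 for c and -0.13 to 0.15 for d. Leaving out GFP-positive replicate 1 gave 2 Hox genes at an unadjusted p under 0.05, again Hoxb3 and Hoxb5. Same-numbered arrays of both groups correlated in their deviations from the group mean by 0.124, 0.05 and 0.092, not all over 0.1, although each correlated best with its own number, so the number was not treated as pairing. With the replicate block 0 genes passed, Hoxb5 stayed at 2.70 (limma adjusted p = 0.368) and the smallest adjusted p over all genes was 0.352. Signals near background limit what can be said of the 22 Hox genes not above the higher guide in all 6 arrays.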
